A study of Torulaspora microellipsoides with 8 samples.

Results

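Aminoacyl-tRNA synthetases are the enzymes that join each amino acid to its tRNA before the ribosome can use it. Yeast cells need separate sets of charged tRNA for the ribosomes of the cytosol and for those of the mitochondria. In Saccharomyces cerevisiae most amino acids have a cytosolic enzyme and a mitochondrial enzyme encoded by different nuclear genes, whereas ALA1, GRS1, HTS1 and VAS1 each encode both forms from a single gene by using alternative start sites. All of these mRNAs are made in the nucleus and translated in the cytosol, including those of the enzymes that are then imported into mitochondria.

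The mRNA of these enzymes was compared between opaque and white cells of Torulaspora microellipsoides, a budding yeast whose white cells switch spontaneously to a larger opaque form of higher DNA content. Of 34 synthetase genes listed by their S. cerevisiae names, 28 were matched by name to a transcribed region of the T. microellipsoides annotation, under 31 of its 4464 regions and 28 of its 3307 gene names. These were 13 of 16 cytosolic enzymes, 4 of 4 dual enzymes and 11 of 14 mitochondrial enzymes. The cytosolic DPS1, KRS1 and TYS1 and the mitochondrial MSR1, MSW1 and SLM5 were not analysed here. The names rest on similarity to S. cerevisiae proteins, and the place where each enzyme works is known from S. cerevisiae and was not measured in T. microellipsoides.

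The data were 3 mRNA libraries from opaque cultures and 3 from white cultures of the same strain, with no other treatment or engineered allele in either group. According to the labels, 25 ml cultures were started at an OD600 of 0.05, shaken at 200 r.p.m. and about 23 °C, and harvested in log phase at an OD600 of 1.0. The methods of the paper name yeast extract glucose as the medium and give another volume and speed. The labels number separate cultures but do not say whether each began from its own colony, so p-values measure the spread between these cultures. The opaque libraries held 24948791 to 50126043 counts and the white libraries 27057131 to 36957019. The study's mapping table gives white library 3 a lower mapped share than the others, and the counts of synthetases higher and lower in opaque cells were the same without it. The labels were set against 7 genes that the study itself measured by RT-qPCR after seeing these libraries, which is not independent evidence. GAP1, MEP2 and RPL30 were higher in opaque cells, and CTT1, GLK1, SSA3 and XBP1 were lower, with no overlap between the opaque and white libraries for any of the 7. This is for the region of each name with the most counts. A further SSA3 region of 282 bp went the other way, with 4495, 2029 and 1649 opaque and 424, 529 and 576 white counts. The further region of XBP1 was also lower.

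Levels are given as CPM per kb, that is, counts scaled to a common library size after TMM normalization and divided by the length of the region in kilobases, so that enzymes with regions of different length can be set side by side. Each is a share of the mRNA sequenced from a culture, and a larger or more polyploid cell with more mRNA in all would not show it. A log2 fold change, or a difference in log2 units, is opaque minus white. Differences were tested with edgeR's quasi-likelihood test, with p adjusted over all 4404 tested regions, and "rose" and "fell" are used at an adjusted p under 0.05. Where a name had several regions, that with the highest mean count stands for it.

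The compartments parted in opposite directions. All 28 synthetases changed, as did 74.2% of tested regions. All 13 cytosolic enzymes analysed and all 4 dual enzymes were more highly expressed in opaque cells, against a background of 36.6% of all tested regions that were higher in opaque cells. Of the 11 mitochondrial enzymes, 10 were lower in opaque cells, against a background of 37.6%, and ISM1 alone was higher. The median log2 fold change was 1.00 for the cytosolic enzymes, 0.75 for the dual enzymes and -0.62 for the mitochondrial enzymes, beside -0.02 for all tested regions. In all 28 the 3 opaque and the 3 white libraries did not overlap, which was so for 37.9% of tested regions with opaque above white and for 39.9% with opaque below white. A difference between the classes as such was not tested.

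**Figure D1:**
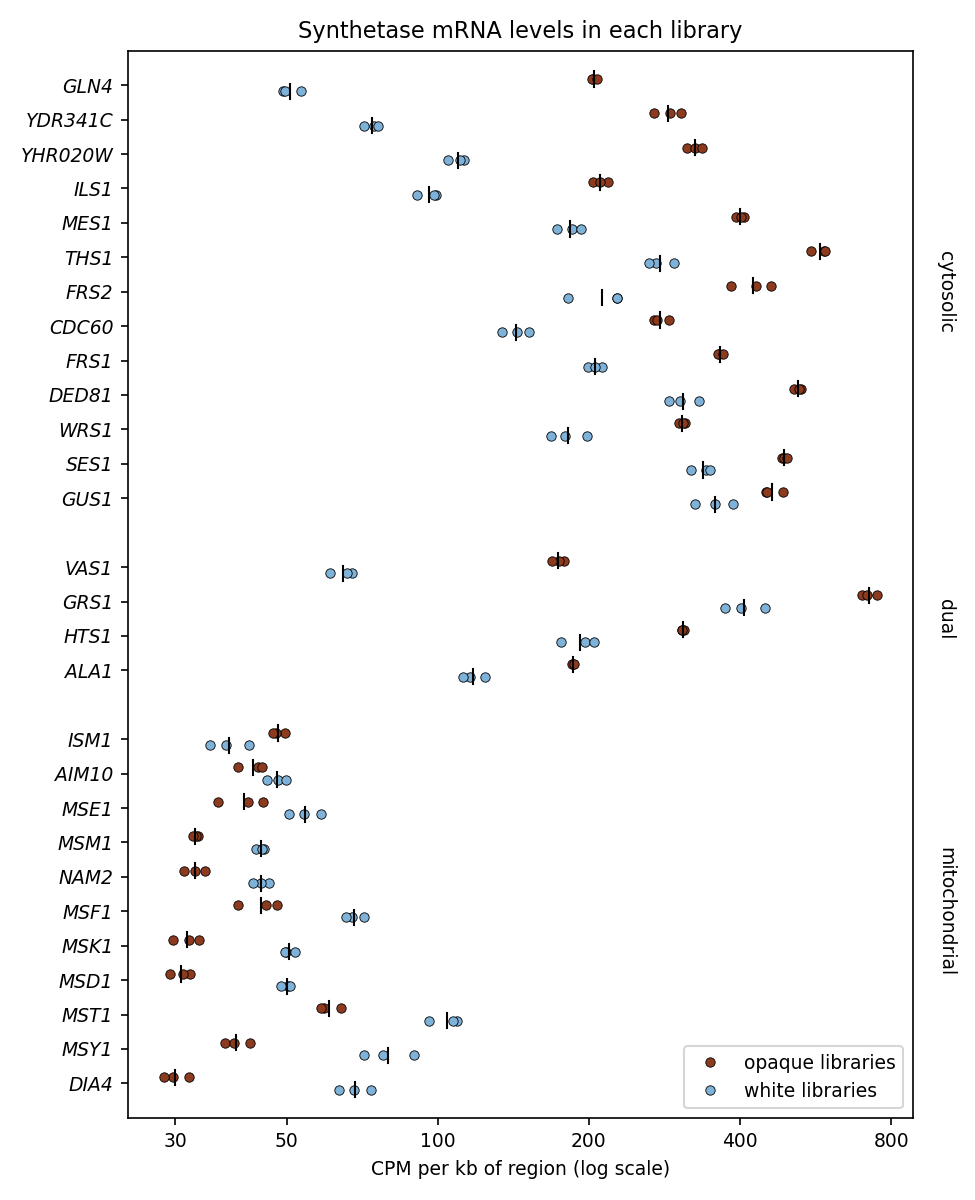
Level of each synthetase mRNA in CPM per kb of region on a log scale, with points for the 3 opaque libraries (dark, upper) and the 3 white libraries (light, lower) of each gene and a short line at their mean. Cytosolic and dual enzymes lie to the right in opaque libraries, mitochondrial enzymes lie at 28.4 to 109 CPM per kb in all libraries, and ISM1 is the mitochondrial enzyme whose opaque points lie to the right of its white points.

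The cytosolic enzymes together took 0.922, 0.894 and 0.913% of the counts of the opaque libraries, against 0.523, 0.520 and 0.511% of those of the white libraries. The mitochondrial enzymes took 0.0752, 0.0724 and 0.0686% in opaque libraries and 0.113, 0.114 and 0.111% in white libraries. These shares are of the total counts of each library, without TMM normalization, so a class can lose share because other genes gain it. For both classes the opaque and white libraries were well apart. Per kb, the average cytosolic enzyme was 9.12, 9.26 and 10 times as abundant as the average mitochondrial enzyme in the opaque libraries, and 3.32, 3.26 and 3.33 times in the white libraries. The mean of the dual enzymes was close to that of the cytosolic enzymes in every library. The cytosolic over dual ratio was 1.06, 1.07 and 1.10 in opaque libraries and 1.01, 0.961 and 1.02 in white libraries. GRS1, by far the most abundant dual enzyme, raised the dual mean, and the medians lay further apart. In opaque libraries the median was 363, 362 and 369.6 CPM per kb for cytosolic and 247, 248 and 247 CPM per kb for dual enzymes. In white libraries it was 185, 193 and 173 CPM per kb for cytosolic and 156, 164 and 144 CPM per kb for dual enzymes.

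**Figure D2:**
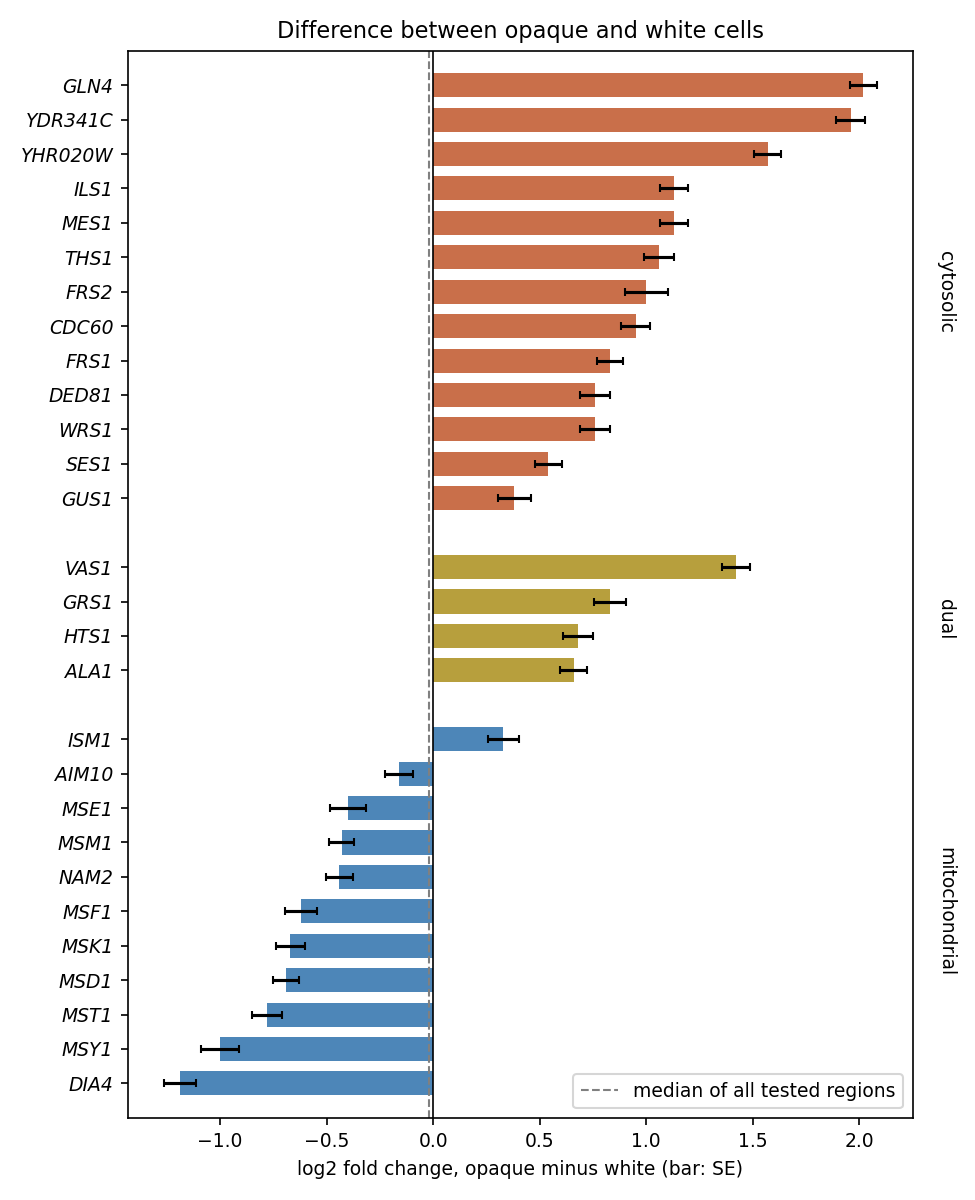
Log2 fold change of each synthetase mRNA, opaque minus white, with bars from 0 and error bars for the SE of the edgeR fit, and a dashed line at the median of all tested regions (-0.02). Cytosolic and dual enzymes run from 0.38 to 2.02, and mitochondrial enzymes from -1.19 to 0.33.

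Among the cytosolic enzymes, those that charge glutamine, arginine and proline rose most. GLN4, the glutaminyl-tRNA synthetase, was at 204, 203 and 208 CPM per kb in opaque libraries, against 53.3, 49.2 and 49.7 CPM per kb in white libraries. This was a difference of 2.02 log2 units (SE 0.063, edgeR adjusted p = 2.4e-10), the only one of the class that was at least 4-fold higher, as 5.93% of tested regions were. GLN4 was close to that bound, with 1.86 to 2.04 log2 units over the alternatives run. It fell short of 4-fold with upper-quartile scaling (1.90) and total-count scaling (1.86), with a minimum of 10 counts in every library (1.98), with counts added per name (1.97), and without opaque library 3 or white library 3 (1.99 each), each of which leaves 0 cytosolic enzymes past 4-fold. S. cerevisiae has no mitochondrial counterpart of GLN4, because its mitochondria first load glutamate on the glutamine tRNA and then amidate it. YDR341C, the cytosolic arginyl-tRNA synthetase, was at 305, 269 and 289.7 CPM per kb in opaque libraries and 74.7, 71.3 and 75.9 CPM per kb in white libraries, a difference of 1.96 log2 units (SE 0.069, edgeR adjusted p = 5.6e-10). YHR020W, the cytosolic prolyl-tRNA synthetase, was at 313, 326 and 336 CPM per kb in opaque libraries and 113, 110.5 and 105 CPM per kb in white libraries, a difference of 1.57 log2 units (SE 0.065, edgeR adjusted p = 2.1e-09). GLN4 and YDR341C were the lowest of the 13 in white cells.

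A middle group was about 2-fold higher in opaque cells. ILS1, which charges isoleucine, averaged 211 ± 7.25 CPM per kb in opaque cells and 96.2 ± 4.57 CPM per kb in white cells (SD, n = 3 each), which is 1.13 log2 units. MES1, the methionyl-tRNA synthetase, which serves both initiation and elongation in the cytosol, was at 407, 393 and 402 CPM per kb in opaque libraries and 185, 193 and 173 CPM per kb in white libraries, also a log2 fold change of 1.13. THS1, for threonine, was at 588, 555 and 591 CPM per kb in opaque libraries, the highest of the cytosolic enzymes there, and at 272, 295 and 263 CPM per kb in white libraries. The log2 fold change of THS1 was 1.06 (SE 0.069, edgeR adjusted p = 8.2e-08), and CDC60, for leucine, had 0.95 (SE 0.070, edgeR adjusted p = 2.5e-07).

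The cytosolic phenylalanyl enzyme is built of equal numbers of the FRS1 beta subunit and the FRS2 alpha subunit. FRS2 was at 384, 430.3 and 461 CPM per kb in opaque libraries and 228, 182 and 227 CPM per kb in white libraries, a wider spread between replicates than that of FRS1. FRS1 was at 363, 362 and 369.6 CPM per kb in opaque libraries and 212, 199 and 206 CPM per kb in white libraries. The log2 fold changes were 1.00 for FRS2 (SE 0.10) and 0.83 for FRS1 (SE 0.062). The ratio of FRS1 to FRS2 was 0.946, 0.841 and 0.802 in opaque libraries and 0.932, 1.09 and 0.908 in white libraries, which overlap, so both subunits rose and no difference in their balance was resolved with 3 libraries a group.

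The smallest rises were those of DED81, WRS1, SES1 and GUS1. DED81, for asparagine, averaged 522 ± 9.65 CPM per kb in opaque cells and 308 ± 21.5 CPM per kb in white cells (SD, n = 3 each), and WRS1, for tryptophan, averaged 307 ± 4.37 and 182 ± 15.2 CPM per kb in opaque and white cells, both with a log2 fold change of 0.76. SES1, for serine, was at 485, 489 and 497 CPM per kb in opaque libraries and 343, 349 and 319 CPM per kb in white libraries, a difference of 0.54 log2 units (SE 0.064, edgeR adjusted p = 1.4e-05). GUS1, the glutamyl-tRNA synthetase, was at 488, 451 and 452 CPM per kb in opaque libraries and 357, 387 and 325 CPM per kb in white libraries, a difference of 0.38 log2 units (SE 0.077, edgeR adjusted p = 9.0e-04). GUS1 and SES1 were the most abundant cytosolic enzymes in white cells, and GUS1 changed least.

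The cytosolic enzymes differed less from each other in opaque cells than in white cells. The SD of the log2 level over the 13 enzymes was 0.47, 0.48 and 0.49 in opaque libraries and 0.86, 0.91 and 0.86 in white libraries. This was not particular to the cytosolic class. The SD over the mitochondrial enzymes was 0.33, 0.33 and 0.31 in opaque libraries and 0.43, 0.45 and 0.41 in white libraries. Over the dual enzymes it was 0.97, 0.93 and 0.95 in opaque libraries and 1.1, 1.21 and 1.06 in white libraries. The highest enzyme was 2.87, 2.73 and 2.84 times the lowest in opaque libraries (THS1 over GLN4), against 6.70, 7.86 and 6.55 times in white libraries (GUS1 over GLN4). A fold change and the white level share the same white values, so the order of the rises and the order of the white levels are not separate observations.

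In S. cerevisiae, MES1 and GUS1 proteins form a complex with ARC1, a cofactor that binds tRNA and helps to hold both enzymes in the cytosol. ARC1 was at 575, 562 and 585 CPM per kb in opaque libraries and 428, 445 and 396 CPM per kb in white libraries, a difference of 0.44 log2 units (SE 0.067, edgeR adjusted p = 1.1e-04), near the 0.38 of GUS1. The ratio of GUS1 to ARC1 was 0.849, 0.803 and 0.772 in opaque libraries and 0.834, 0.869 and 0.822 in white libraries, and the groups overlap. The ratio of MES1 to ARC1 was 0.709, 0.698 and 0.686 in opaque libraries and 0.433, 0.434 and 0.436 in white libraries, with no overlap. These ratios, like that of FRS1 to FRS2, were chosen after the values were seen and were not tested.

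All 4 dual enzymes rose, and none was among the enzymes that fell. VAS1, for valine, was at 178, 174 and 169 CPM per kb in opaque libraries and 67.5, 61.0 and 65.8 CPM per kb in white libraries, a difference of 1.42 log2 units (SE 0.066, edgeR adjusted p = 5.3e-09). GRS1, for glycine, was the most abundant of all 28 synthetases in both cell types, at 749.7, 701 and 718 CPM per kb in opaque libraries and 401, 449 and 374 CPM per kb in white libraries, a difference of 0.83 log2 units (SE 0.077, edgeR adjusted p = 2.0e-06). HTS1, for histidine, rose by 0.68 and ALA1, for alanine, by 0.66 log2 units (edgeR adjusted p = 4.3e-06 and 2.4e-06). HTS1 averaged 308 ± 1.30 CPM per kb in opaque cells and 192 ± 14.5 CPM per kb in white cells, and ALA1 averaged 186 ± 0.622 and 118 ± 5.65 CPM per kb in opaque and white cells (SD, n = 3 each). A region count does not separate the mRNA forms that start at different sites, so the cytosolic and mitochondrial forms of these 4 genes cannot be told apart.

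The mitochondrial enzymes were expressed at a lower level than the cytosolic and dual enzymes of the same library on average, and 0 of the 11 were at least 4-fold lower in opaque cells, as 5.25% of tested regions were. DIA4, the mitochondrial seryl-tRNA synthetase, fell most, to 31.9, 29.6 and 28.4 CPM per kb in opaque libraries, against 68.1, 73.7 and 63.4 CPM per kb in white libraries. Its log2 fold change was -1.19 (SE 0.076, edgeR adjusted p = 8.1e-08), and it was the lowest of the class in each opaque library, but not in any white library. MSY1, for tyrosine, was at 42.2, 37.6 and 39.2 CPM per kb in opaque libraries and 77.9, 89.8 and 71.4 CPM per kb in white libraries, a difference of -1.0 log2 units (SE 0.088, edgeR adjusted p = 1.2e-06). MST1, for threonine, was the most abundant of the class in both cell types, at 64.0, 59.3 and 58.6 CPM per kb in opaque libraries and 109, 107 and 96.2 CPM per kb in white libraries, a difference of -0.78 log2 units (SE 0.070, edgeR adjusted p = 1.4e-06).

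MSD1, MSK1 and MSF1, which charge aspartate, lysine and phenylalanine in mitochondria, fell by 0.69, 0.67 and 0.62 log2 units (edgeR adjusted p = 1.2e-06, 3.0e-06 and 2.0e-05). MSD1 was at 32.1, 31.0 and 29.3 CPM per kb in opaque libraries and 50.3, 50.8 and 48.8 CPM per kb in white libraries. MSK1 was at 31.9, 29.7 and 33.5 CPM per kb in opaque libraries and 49.9, 49.5 and 51.9 CPM per kb in white libraries. Both were tight between replicates, and their ranges in either cell type were far apart. NAM2, the mitochondrial leucyl-tRNA synthetase, which in S. cerevisiae also takes part in splicing mitochondrial introns, averaged 32.8 ± 1.53 CPM per kb in opaque cells and 44.4 ± 1.66 CPM per kb in white cells (SD, n = 3 each), which is -0.44 log2 units. MSM1, for methionine, had a log2 fold change of -0.43 and MSE1, for glutamate, of -0.40 (edgeR adjusted p = 4.2e-05 and 0.0013).

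ISM1 and AIM10 stood at the upper end of the mitochondrial class. ISM1, the mitochondrial isoleucyl-tRNA synthetase, was at 49.7, 47.6 and 47.0 CPM per kb in opaque libraries and 37.8, 42.0 and 35.1 CPM per kb in white libraries, a difference of 0.33 log2 units (SE 0.074, edgeR adjusted p = 0.0019). ISM1 was the lowest of the 11 in each white library, and its cytosolic counterpart ILS1 also rose. Scaled by upper quartile, ISM1 rose by 0.22 log2 units (edgeR adjusted p = 0.016), and scaled by total counts by 0.18 (edgeR adjusted p = 0.031). AIM10, a probable mitochondrial prolyl-tRNA synthetase, was at 43.9, 44.7 and 39.9 CPM per kb in opaque libraries and 48.1, 49.8 and 45.7 CPM per kb in white libraries. Its log2 fold change of -0.16 (SE 0.067) only just passed (edgeR adjusted p = 0.04997) and did not pass with DESeq2 (adjusted p = 0.098). Nor did it pass without opaque library 3, white library 1 or white library 2 (edgeR adjusted p = 0.09, 0.069 and 0.13), so 9 mitochondrial enzymes were lower under all alternatives run and AIM10 was not.

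For 8 amino acids both a cytosolic and a mitochondrial enzyme were measured, which gives 9 pairs because the cytosolic phenylalanyl enzyme has a pair of subunits that share MSF1 as their counterpart. The ratio of the cytosolic to the mitochondrial mRNA, taken per kb within each library and so free of scaling between libraries, was higher in all 3 opaque libraries than in all 3 white libraries for all 9 pairs. With 3 libraries against 3, the exact two-sided permutation p was 0.1 for each pair (0.1 after Benjamini-Hochberg adjustment over the 9), the smallest the design allows. For every pair except ILS1 and ISM1, the cytosolic enzyme rose and the mitochondrial enzyme fell, each without overlap between opaque and white libraries. Their ratios therefore had to part without overlap, and p had to be 0.1, so these ratios are not separate evidence. The ratio of THS1 to MST1 for threonine differed most, at 9.19, 9.36 and 10.1 in opaque libraries and 2.50, 2.76 and 2.73 in white libraries, a difference of 1.84 on the log2 scale. The ratio of SES1 to DIA4 for serine was 15.2, 16.5 and 17.5 in opaque libraries and 5.04, 4.73 and 5.04 in white libraries, a log2 difference of 1.73. SES1 and DIA4 thus came to 1.73 with a small rise and a large fall, whereas YHR020W and AIM10 for proline came to the same 1.73 with a large rise and hardly any fall.

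The ratio of MES1 to MSM1 for methionine was 12.3, 11.9 and 12.4 in opaque libraries and 4.11, 4.44 and 3.87 in white libraries. That of CDC60 to NAM2 for leucine was 8.42, 8.23 and 8.75 in opaque libraries and 3.13, 3.43 and 3.14 in white libraries. The smallest differences were those of isoleucine and glutamate. The ratio of ILS1 to ISM1 was 4.39, 4.28 and 4.47 in opaque libraries and 2.63, 2.34 and 2.59 in white libraries, a log2 difference of 0.80 in which both enzymes rose. The ratio of GUS1 to MSE1 was 11.6, 10.1 and 12.4 in opaque libraries and 6.60, 6.62 and 6.44 in white libraries, a log2 difference of 0.79. In white cells GUS1 to MSE1 was the highest of the 9 ratios, and in opaque cells SES1 to DIA4 was.

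**Figure D3:**
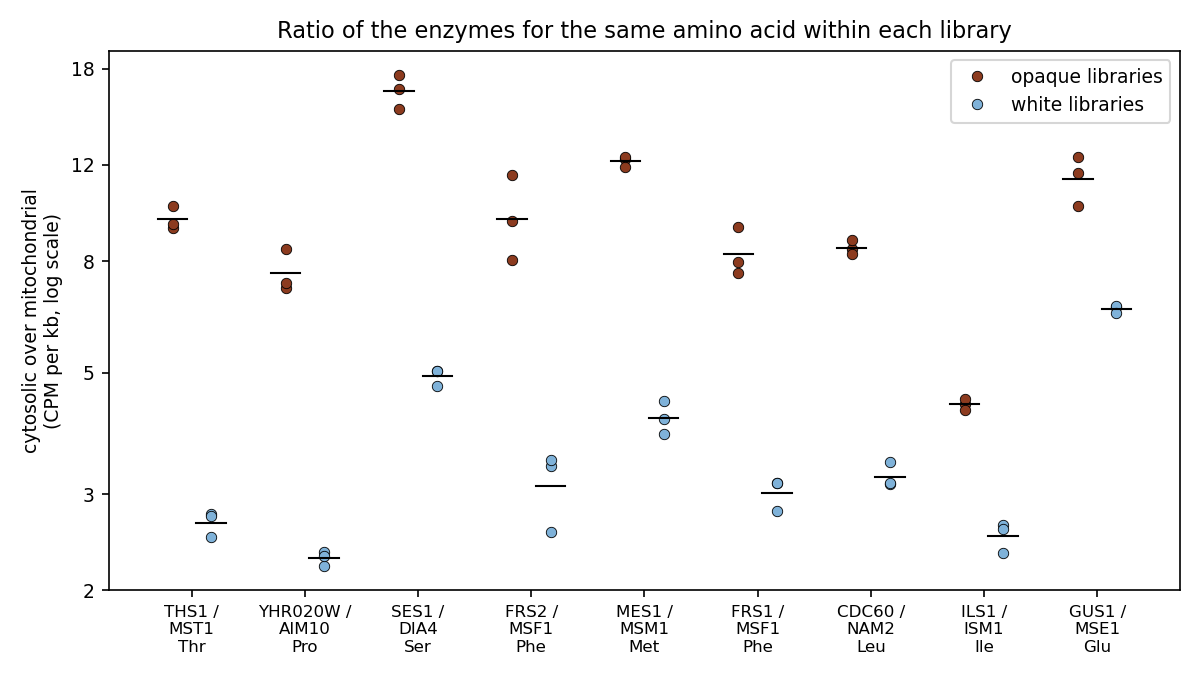
Ratio of the cytosolic to the mitochondrial synthetase mRNA for the same amino acid (CPM per kb, log scale) in each opaque library (left of each pair) and white library (right), with a line at the geometric mean. The opaque points lie above the white points for all 9 pairs, from a log2 difference of 1.84 for THS1 over MST1 to 0.79 for GUS1 over MSE1.

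The classes also differed in features that their definition did not use. The regions of the cytosolic enzymes matched their S. cerevisiae proteins at a median identity of 80.3% (74.83 to 88.64%), those of the dual enzymes at 83.6% (82.25 to 85.07%) and those of the mitochondrial enzymes at 60.5% (55.03 to 66.82%), beside 59.0% for all tested regions. The ranges of the cytosolic and mitochondrial enzymes thus did not overlap. The median region was 2025 bp long for cytosolic, 2428.5 bp for dual and 1605 bp for mitochondrial enzymes. All 28 regions were covered over 100% of their length in every library and overlapped no other region. They had at least 888 counts in every library, so the filter on low counts removed none of them. Changing the filter still moved their log2 fold changes a little. That of GLN4 went from 2.02 to 1.98 with a minimum of 10 counts in every library.

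In the CLIB830T assembly the 28 regions lie on 10 scaffolds. DED81 (scaffold 3, 909718 to 911379) and YHR020W (scaffold 3, 911714 to 913738) are direct neighbours that point away from each other, 335 bp apart. Both rose, but by unequal amounts, and the ratio of YHR020W to DED81, also chosen after the values were seen and not tested, was 0.591, 0.638 and 0.641 in opaque libraries and 0.372, 0.333 and 0.365 in white libraries. The mitochondrial MSD1 (scaffold 2, 534412 to 536349) and MSY1 (scaffold 2, 544256 to 545584) lie on the same scaffold with DIA4 (scaffold 2, 652290 to 653621), and all 3 fell, whereas the cytosolic CDC60 on that scaffold (353503 to 356766) rose. GLN4 lies on scaffold 8 (564562 to 566985) and YDR341C on scaffold 3 (717700 to 719505). Whether counting used the strand is not given in the sources used here, so reads of antisense transcripts may be included.

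The cytosolic and mitochondrial ribosomal proteins, the gene sets nearest to the synthetases in function, were set beside them. Opaque cells had more mRNA for all 60 tested cytosolic ribosomal protein genes, by 0.82 to 1.60 log2 units (median 1.22), where 36.6% of all tested regions were higher. The cytosolic synthetases had a lower median (1.00) and a wider range (0.38 to 2.02), with GLN4 and YDR341C above all of the ribosomal proteins. Of 37 mitochondrial ribosomal protein genes, 22 fell, 2 rose and 13 missed the threshold, and the median was -0.23, where 37.6% of all tested regions were lower and 36.6% higher. Their log2 fold changes ran from -0.77 to 2.33, with RSM22 at the upper end and MRPS16 next below it at 0.55. The mitochondrial synthetases had a median of -0.62, DIA4 and MSY1 lay below the lowest of the mitochondrial ribosomal proteins and MST1 (-0.78) was level with it. The differences between these sets were not tested.

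**Figure D4:**
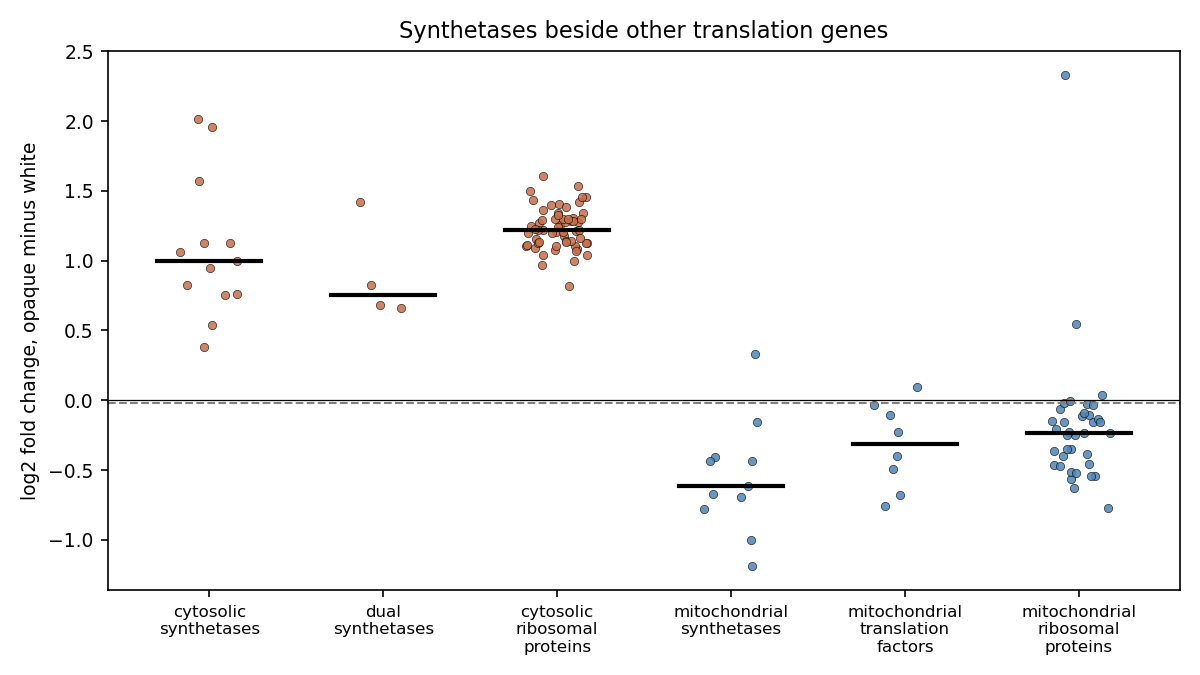
Log2 fold change, opaque minus white, of each gene (points) with the median of each set (thick line), for synthetases and for other genes of translation, with cytosolic and dual sets on the left and mitochondrial sets on the right, with a dashed line at the median of all tested regions. The medians are 1.00 for the cytosolic synthetases, 0.75 for the dual synthetases and 1.22 for the cytosolic ribosomal proteins, and -0.62 to -0.23 for the mitochondrial sets.

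Genes that work with tRNA before and after charging were read from lists written with earlier results known. Of tRNA maturation and export genes, 5 of 10 were measured and all 5 rose (median 1.13 log2 units), beside 36.6% of all tested regions. LOS1, the nuclear exporter of tRNA, was at 52.2, 54.2 and 52.6 CPM per kb in opaque libraries and 20.1, 20.1 and 19.5 CPM per kb in white libraries, a difference of 1.41 log2 units (SE 0.058, edgeR adjusted p = 2.0e-09). TRL1, the tRNA ligase that joins the exons of spliced tRNA, rose by 1.39 (edgeR adjusted p = 1.6e-08). DTD1, which removes D-amino acids from tRNA, rose by 1.20, and YNL247W, the cysteinyl-tRNA synthetase, by 0.23 (edgeR adjusted p = 9.9e-07 and 0.0093).

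Uncharged tRNA is sensed by the kinase GCN2 with the help of GCN1, and the signal raises translation of the transcription factor GCN4. GCN1 rose by 0.39, GCN2 fell by 0.43 and GCN4 rose by 0.99 log2 units (edgeR adjusted p = 2.0e-04, 8.0e-04 and 9.2e-04). A further GCN2 region of 120 bp at 38.1% identity went the other way, at 0.88 log2 units (edgeR adjusted p = 0.041). The further region of GCN1 was also higher in opaque cells. GCN4 mRNA was at 1448, 1638 and 2335 CPM per kb in opaque libraries and 881, 845 and 1007 CPM per kb in white libraries, with no overlap but a wide spread in opaque cells. GCN4 is controlled mainly at translation, which mRNA counts do not measure.

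In mitochondria, 8 of 12 translation factors were measured. Of these 5 fell, 0 rose and 3 missed the threshold (median -0.31), beside 37.6% of all tested regions that were lower and 36.6% that were higher. HER2, among the 3 that missed, was read from a 255 bp region at 28.41% identity, a weak match. A further HER2 region of the same length on scaffold 1 was at 0.11 log2 units, and one on scaffold 13 was at -4.14. IFM1, the mitochondrial initiation factor, and TUF1, the mitochondrial elongation factor Tu, fell by 0.76 and 0.68 log2 units (edgeR adjusted p = 1.7e-06 and 7.0e-06). PET112, chosen after the values were seen, is a subunit of the amidotransferase that makes glutaminyl-tRNA in mitochondria. It was at -0.10 log2 units (edgeR adjusted p = 0.18) and missed the threshold, whereas the cytosolic GLN4 was the synthetase that rose most. Genes that maintain and transcribe mitochondrial DNA and process its RNA went both ways, with 4 of 6 measured genes higher and 2 lower in opaque cells, beside 36.6% and 37.6% of all tested regions, so that the 2 lower genes are near the background share. MTF1, the mitochondrial transcription factor, and SUV3, an RNA helicase of the mitochondrial degradosome, rose by 0.84 and 0.71, and MIP1, the mitochondrial DNA polymerase, and RPM2, a subunit of mitochondrial RNase P, had -0.64 and -0.23 (edgeR adjusted p = 6.9e-06, 6.2e-07, 7.7e-05 and 0.0046). MIP1 had further short regions. That of 141 bp was also lower (-0.88 log2 units), and those of 96 bp on scaffolds 7 and 12 missed the threshold. That of 63 bp on scaffold 8 was higher, at 0.95 log2 units (edgeR adjusted p = 0.038).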

How the data were processed

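RNA of 3 opaque and 3 white cultures was analysed from the counts of reads per transcribed region deposited by the authors, who aligned reads with STAR, assembled transcripts with cufflinks and named them by BLAST against S. cerevisiae proteins. The counts are whole numbers without normalization. The fraction of each region covered by reads and the percent identity to the S. cerevisiae match, both as deposited by the authors, were used only as descriptions. The 2 genomic DNA samples were not used here.

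Counts were fitted with edgeR 4.0.16 in R 4.3.3, with TMM normalization, filterByExpr and a robust quasi-likelihood fit on cell type, and Benjamini-Hochberg adjustment over 4404 regions. An SE is the size of the log2 fold change divided by the square root of F. Members are regions whose first annotated gene name is a listed one, and all found are named, as are the genes with the largest rise and fall in related lists (up to 2 in each direction), all of a list of 4 or fewer and all label check genes. The members and lists were chosen with earlier results of these data known. Pair ratios were compared by exact two-sided permutation tests. DESeq2 1.42.0, other scalings and filters, a replicate block, counts summed per name and leaving out each library served as alternatives. The code was tested on simulated data. No pair of libraries of a group agreed within sampling noise.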

Additional observations from a re-analysis of the deposited data

How the results depend on the processing

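Of the 28 synthetases, 27 kept their direction and their call under all 13 alternatives, and AIM10 kept its direction but lost its call under 4 of them. With upper-quartile or total-count scaling the median region stood at -0.14 or -0.18 log2 units, against -0.02 with TMM. The cytosolic median was then 0.89 and 0.84, and the mitochondrial median with total counts was -0.77, shifts of about the size of that of all regions. Leaving out each library in turn gave 0.94 to 1.04 for the cytosolic median and -0.69 to -0.56 for the mitochondrial median. The 13 cytosolic, 4 dual and 1 mitochondrial enzymes higher in opaque cells were found under each alternative, with 9 or 10 mitochondrial enzymes lower. With a replicate block on the culture number, 3259 regions changed, against 3267 without it, and no call on a synthetase differed. Deviations of same-numbered cultures correlated at -0.036, -0.036 and 0.181, and those of cultures with unlike numbers at -0.192 to 0.209. The paper calls the cultures matched, and these correlations cannot show whether the numbers pair them. All 28 regions had at least 888 counts in every library.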

Other observations

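CDC60, SES1 and VAS1 each had a further short region elsewhere in the assembly. That of CDC60 (scaffold 8, 796896 to 796949, 54 bp, 44.44% identity) had 4, 1 and 0 counts in opaque libraries and 50, 77 and 64 counts in white libraries, the opposite direction to the long CDC60 region. That of VAS1 (scaffold 9, 108133 to 108195, 63 bp, 47.62% identity) had 32, 14 and 17 counts in opaque libraries and 41, 68 and 84 counts in white libraries. That of SES1 (scaffold 8, 418791 to 418829, 39 bp) had 9 to 12 counts in every library. When the regions of each name were added together, CDC60, SES1 and VAS1 were still higher in opaque cells.

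Synthetases fall into class I and class II by the fold of the catalytic domain, unrelated to where they work. Grouped this way after the values were seen, the 8 cytosolic and dual enzymes of class I had a median log2 fold change of 1.13 (0.38 to 2.02) and the 9 of class II had 0.83 (0.54 to 1.57). The 5 mitochondrial enzymes of class I had a median of -0.43 (-1.0 to 0.33) and the 6 of class II had -0.68 (-1.19 to -0.16). The ranges overlap in both compartments, and no test was made.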
